A study of Rattus rattus with 10 samples.

Results

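Testis RNA taken after gamendazole was compared with testis RNA taken after lonidamine at the same hour. The comparison used the arrays titled for gamendazole at 4, 12 and 24 h (3 arrays) and those titled for lonidamine at 4, 12 and 24 h (3 arrays), paired by hour, which are 6 of the 10 arrays in the series. All 31042 probe sets other than the manufacturer's controls were used, of 31099 on the array, and each reads 1 transcript or a few closely related ones. The animals were adult male Long-Evans rats, 60 days old per the labels, and each received 1 intraperitoneal dose. Gamendazole was given at 6 mg/kg, lonidamine at 25 mg/kg, and vehicle animals received buffered DMSO, with vehicle arrays at 0, 4, 12 and 24 h. There was 1 array per treatment and hour, and the labels state neither how many animals stood behind an array nor whether their RNA was pooled. The organism field of the labels names Rattus rattus although Long-Evans rats belong to the laboratory species.

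Both compounds are indazole carboxylic acids that carry a dichlorobenzyl group, and gamendazole differs by a trifluoromethyl group and a side chain of acrylic acid. Sertoli cells support the germ cells in the seminiferous tubule. They hold developing spermatids at junctions on their inner face, and both compounds are known to loosen these junctions so that immature spermatids are shed. Sertoli cells also secrete inhibin, and cytokines of the interleukin 1 family act on their junctions. The doses differed between the compounds, so every difference given here is between 2 treatments, a compound with its dose, and not between the compounds at 1 dose.

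The deposited values are array signals on a linear scale, scaled by the authors' software to 1 common mean, and the array medians lay between 110.2 and 124.5 units. Signals compare 1 probe set between arrays, not different genes with each other. A floor of 37.1, the 25th percentile over all arrays, replaced lower values before log2 was taken. From the deposited instrument records the arrays were grouped into 3 hybridisation runs. At 12 and 24 h the gamendazole, lonidamine and vehicle arrays of the hour shared a run. At 4 h the gamendazole array was in the second run and the lonidamine array in the first, so at that hour the treatment and the run cannot be told apart. RNA integrity was read from the beta-actin probe sets, whose 3'/5' ratio was between 1.91 and 1.95 on the gamendazole arrays and between 1.85 and 1.96 on the lonidamine arrays. The same ratio of GAPDH at 4, 12 and 24 h was 0.754, 0.804 and 0.853 with gamendazole, against 0.792, 0.723 and 0.797 with lonidamine, and its part in the results was not tested. All 15 marker genes of meiotic spermatocytes, 16 of round spermatids and 24 of elongating spermatids were above the pooled median on a vehicle array. So were 19 of 22 of Sertoli cells and 5 of 8 of the epididymis. The summed signal of the epididymal markers was 3054 to 4066 over all arrays. In whole tissue, fewer cells of a type and less RNA per cell cannot be told apart.

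The first question was which transcripts differed between the treatments when the 3 hours were averaged. No probe set did: 0 of 17549 tested passed an adjusted p of 0.05 in limma (0%), and the smallest adjusted p was 0.722. At an unadjusted p under 0.05 there were 776 (4.42%), of which 392 were higher with gamendazole (2.23%) and 384 lower (2.19%). The hours served as replicates in this fit, so a difference that changed with the hour counted as spread, and the 95% interval of a log2 difference reached 0.40 to either side in the median. Leaving out arrays moved the count: it was 8 without gamendazole 4 h (5 higher, 3 lower), 3 without lonidamine 24 h (3 higher, 0 lower) and 2 without all arrays of 4 h (2 higher, 0 lower). Set against vehicle in the same fit, 693 probe sets passed with gamendazole (3.95%), 610 of them higher (3.48%) and 83 lower (0.473%), and 137 with lonidamine (0.781%), 135 higher (0.769%) and 2 lower (0.0114%). Those comparisons share the vehicle arrays, and the difference between their counts is not itself a test of the treatments against each other.

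Hour by hour, and without a test, the treatments stood farthest apart at 12 h. At least 2-fold apart, with the brighter array at or above the pooled median of 116.2, were 776 probe sets at 4 h (2.5% of 31042), 944 at 12 h (3.04%) and 682 at 24 h (2.2%). The 6 pairs of vehicle arrays gave 658, 592, 569, 560, 518 and 510 (2.12%, 1.91%, 1.83%, 1.8%, 1.67% and 1.64%), so all 3 counts lay above the vehicle range, with 24 h closest to it. Not all of this held elsewhere: under quantile normalization 24 h had 558, within a vehicle range of 542 to 737, and at 3-fold both 4 h (235) and 24 h (189) lay within the vehicle range of 161 to 251. With gamendazole the larger number was lower at 4 h (315 higher, 1.01%, and 461 lower, 1.49%) and higher at 12 h (568 higher, 1.83%, and 376 lower, 1.21%) and 24 h (444 higher, 1.43%, and 238 lower, 0.767%). Over the probe sets tested, the standard deviation of the log2 difference was 0.455 at 4 h, 0.486 at 12 h and 0.417 at 24 h, against 0.392 to 0.414 for vehicle pairs. Gamendazole was the treatment farther from its vehicle array in 385 of the 568 probe sets higher with gamendazole at 12 h and in 286 of the 376 lower. At 24 h it was the farther one in 274 of 444 higher and 126 of 238 lower.

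**Figure D1:**
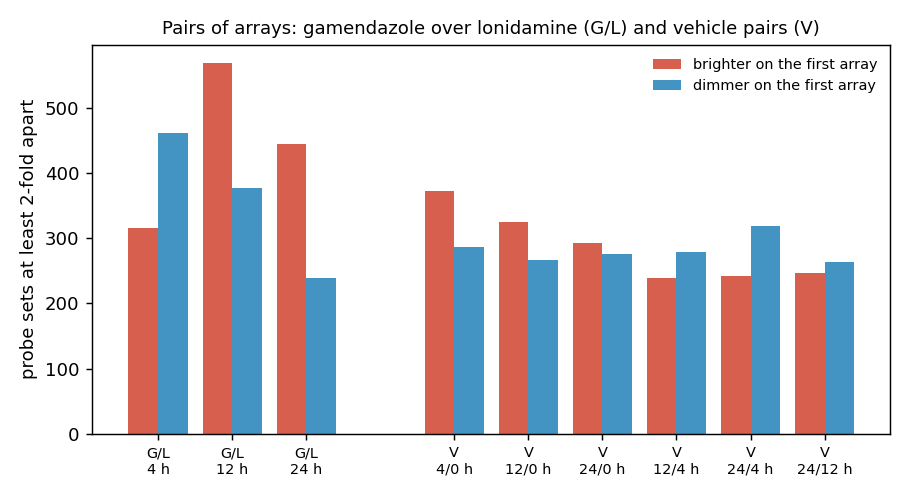
Number of probe sets at least 2-fold apart between 2 arrays (y axis), for gamendazole over lonidamine at 4, 12 and 24 h and for the 6 pairs of vehicle arrays, split into higher and lower. The 3 drug pairs reach 776, 944 and 682, and the vehicle pairs 510 to 658.

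Differences at 1 hour were hardly related to those at another. Across the 17549 probe sets tested, the log2 differences correlated at r = 0.01 between 4 and 12 h, -0.13 between 4 and 24 h and 0.13 between 12 and 24 h, given as a description across probe sets of the same 6 arrays. The share with the same sign at all 3 hours was 24.7%. Only 3 probe sets were at least 2-fold higher with gamendazole at all 3 hours (0.00966%), those of Nmu, Tubb6 and Ifi27l2b, and 3 were at least 2-fold lower (0.00966%), those of Slc3a1 and of 2 probe sets without a gene name. These counts moved with the processing: 1 higher and 5 lower under cyclic loess normalization, and 3 and 4 under quantile normalization. With the floor at the 50th percentile they were 3 and 1, and at 3-fold 0 and 0. At 12 and 24 h together, 49 of the 31042 probe sets were 2-fold higher with gamendazole and 35 2-fold lower. Others changed direction: 19 were 2-fold higher at 12 h and 2-fold lower at 24 h, and 10 the other way. Between 4 and 24 h, 16 went from 2-fold higher to 2-fold lower and 61 from lower to higher.

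Of the genes that came next by p, none of which passed, Nmu encodes the peptide neuromedin U. Its signal was 456.3, 509.6 and 500.8 at 4, 12 and 24 h with gamendazole, against 79.9, 161.6 and 192.7 with lonidamine and 116.3, 62.9 and 143.3 with vehicle. Every gamendazole array lay above every lonidamine and vehicle array, and the lonidamine and vehicle arrays overlapped. The averaged difference was 3.60-fold (log2 1.85 ± 0.33 standard error, n = 3 arrays per treatment, limma adjusted p = 0.722), and it did not pass. Against vehicle, Nmu rose with gamendazole by 2.27 (adjusted p = 0.00859), and lonidamine differed from vehicle by 0.42 (adjusted p = 0.672).

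Mat2b, the regulatory subunit of an enzyme that makes S-adenosylmethionine, had the smallest p of all probe sets. Signals were 1544.0, 2209.2 and 2119.0 with gamendazole, against 1115.3, 1254.0 and 1331.3 with lonidamine and 974.3, 982.6 and 1069.7 with vehicle, so the gamendazole arrays did not overlap the others. The averaged log2 difference was 0.65 ± 0.10 (limma adjusted p = 0.722). Elavl1, which encodes the RNA-binding protein HuR, followed among the genes higher with gamendazole. It had 2307.2, 2323.1 and 2054.1 on gamendazole arrays against 1891.7, 1367.5 and 1514.2 on lonidamine arrays (0.50 ± 0.10, limma adjusted p = 0.743). The 3 tested probe sets of Elavl1 ran the same way, with averaged log2 differences from 0.13 to 0.50.

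Gla encodes the lysosomal enzyme alpha-galactosidase A. It was measured at 408.2, 786.1 and 734.6 with gamendazole, against 188.7, 188.5 and 372.6 with lonidamine and 197.4, 214.6 and 170.4 with vehicle. The gamendazole arrays were the highest 3, and with lonidamine only the 24 h array stood above the vehicle arrays. The averaged log2 difference was 1.38 ± 0.27 (limma adjusted p = 0.743), and a second probe set of Gla ran the same way, at 0.82.

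Tubb6, a beta-tubulin, had a higher signal at each later hour with both compounds. It reached 358.7, 1080.7 and 1537.6 with gamendazole, against 160.8, 386.0 and 754.1 with lonidamine and 44.0, 16.3 and 60.6 with vehicle. At each hour the gamendazole array was above the lonidamine array, by 2.23-fold, 2.80-fold and 2.04-fold, although the treatments overlapped across hours. Averaged, the log2 difference was 1.22 ± 0.34 (limma adjusted p = 0.985).

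Vegfa, a growth factor of blood vessels that is also made in the tubule, stood at 245.7, 297.6 and 297.2 with gamendazole, against 110.4, 87.3 and 186.1 with lonidamine and 72.2, 117.2 and 153.8 with vehicle. Lonidamine arrays lay within or just above the vehicle range. The averaged difference of 1.20 ± 0.28 on the log2 scale did not pass (limma adjusted p = 0.879). Against vehicle, Vegfa rose with gamendazole by 1.35 (adjusted p = 0.0297), and lonidamine differed by 0.15 (adjusted p = 0.875). Ccng1, cyclin G1, a target of p53, had signals of 681.7, 1418.9 and 2209.8 with gamendazole, against 450.6, 669.4 and 1158.8 with lonidamine (0.87 ± 0.22, limma adjusted p = 0.985). The small heat shock protein gene Cryab had 220.8, 798.1 and 578.4 with gamendazole, against 150.1, 130.2 and 199.0 with lonidamine (1.57 ± 0.39, limma adjusted p = 0.956). For Cryab the treatments did not overlap, with the widest gap at 12 h, 6.13-fold.

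Pnoc, the precursor of the neuropeptide nociceptin, and Cdsn, an adhesion protein known from skin, were widest apart at 24 h. Pnoc was 207.1, 225.6 and 425.7 with gamendazole, against 90.8, 134.4 and 108.7 with lonidamine (log2 1.30 ± 0.28, limma adjusted p = 0.768). Cdsn was 214.1, 223.7 and 339.4 with gamendazole, against 94.6, 127.5 and 66.4 with lonidamine (log2 1.45 ± 0.31, limma adjusted p = 0.768). Vehicle signals of Cdsn, at 146.6, 123.0 and 164.3, lay above those of lonidamine at 4 and 24 h.

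On the lower side, Slc3a1, a subunit of the transporter that takes up cystine and basic amino acids, measured 77.4, 110.5 and 128.5 with gamendazole. Lonidamine arrays had 337.9, 298.8 and 326.5, and vehicle arrays 294.5, 141.5 and 199.6. Gamendazole lay below all other arrays and lonidamine above all vehicle arrays of those hours, so vehicle stood between the treatments. The gene was 3.11-fold lower with gamendazole (averaged log2 difference -1.64 ± 0.29, limma adjusted p = 0.722). Neither treatment passed against vehicle (adjusted p = 0.0995 for gamendazole and 0.379 for lonidamine).

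Inhbb encodes a subunit, beta B, of the hormone inhibin that Sertoli cells secrete. Its signals were 320.7, 149.1 and 173.9 with gamendazole, against 527.1, 427.8 and 375.0 with lonidamine and 499.0, 510.3 and 492.2 with vehicle. No gamendazole array reached a lonidamine array, and lonidamine lay below vehicle at 12 and 24 h. The averaged log2 difference was -1.12 ± 0.21 (95% interval -1.58 to -0.65, limma adjusted p = 0.722). Against vehicle, Inhbb fell with gamendazole by 1.30 (adjusted p = 0.0119), while lonidamine differed by -0.19 (adjusted p = 0.775).

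Cxcr4, the receptor of the chemokine Cxcl12, had 131.9, 74.6 and 82.9 with gamendazole, against 355.8, 248.0 and 126.8 with lonidamine and 278.7, 382.8 and 294.4 with vehicle. Here the gap was 2.70-fold, 3.32-fold and 1.53-fold at 4, 12 and 24 h, and the lonidamine array of 24 h lay below the gamendazole array of 4 h (-1.26 ± 0.31, limma adjusted p = 0.956). Smtnl2, a smoothelin-like gene, was 111.5, 67.6 and 113.3 with gamendazole, against 281.1, 193.2 and 216.6 with lonidamine and 515.8, 628.9 and 344.0 with vehicle (-1.26 ± 0.28, limma adjusted p = 0.773). Both treatments stood below the vehicle array of the hour, gamendazole farther, and a second probe set of Smtnl2 differed by -0.21 between the treatments. Pde9a, a phosphodiesterase of cyclic GMP, was 131.5, at the floor, and 38.2 with gamendazole, against 233.9, 112.3 and 149.4 with lonidamine, so that its averaged difference of -1.47 ± 0.40 is at least that large (limma adjusted p = 0.985). Cxcr4, Smtnl2 and Pde9a, like Rbm24, Camsap3 and Cdkn1b, belong to a list picked because its genes were low with gamendazole on these arrays, so their direction is not independent evidence.

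Tgfb1, which encodes transforming growth factor beta 1, was 254.1, 155.4 and 107.1 with gamendazole, against 263.7, 369.7 and 404.2 with lonidamine and 174.2, 198.6 and 206.4 with vehicle. The treatments were close at 4 h and stood 2.38-fold and 3.77-fold apart at 12 and 24 h, with gamendazole below vehicle and lonidamine above it (averaged -1.07 ± 0.31, limma adjusted p = 0.985). Manbal was 710.0, 900.5 and 875.1 with gamendazole, against 1137.3, 1233.2 and 1245.7 with lonidamine (-0.55 ± 0.10, limma adjusted p = 0.722). Rbm24, an RNA-binding protein gene, ran the other way: 107.8, 71.4 and 137.0 with gamendazole, against 40.8, at the floor, and 41.3 with lonidamine and 166.8, 148.1 and 105.7 with vehicle. Lonidamine lay below vehicle at all 3 hours and gamendazole at 4 and 12 h, with an averaged difference between the treatments of 1.36 ± 0.38 or more (limma adjusted p = 0.985).

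**Figure D2:**
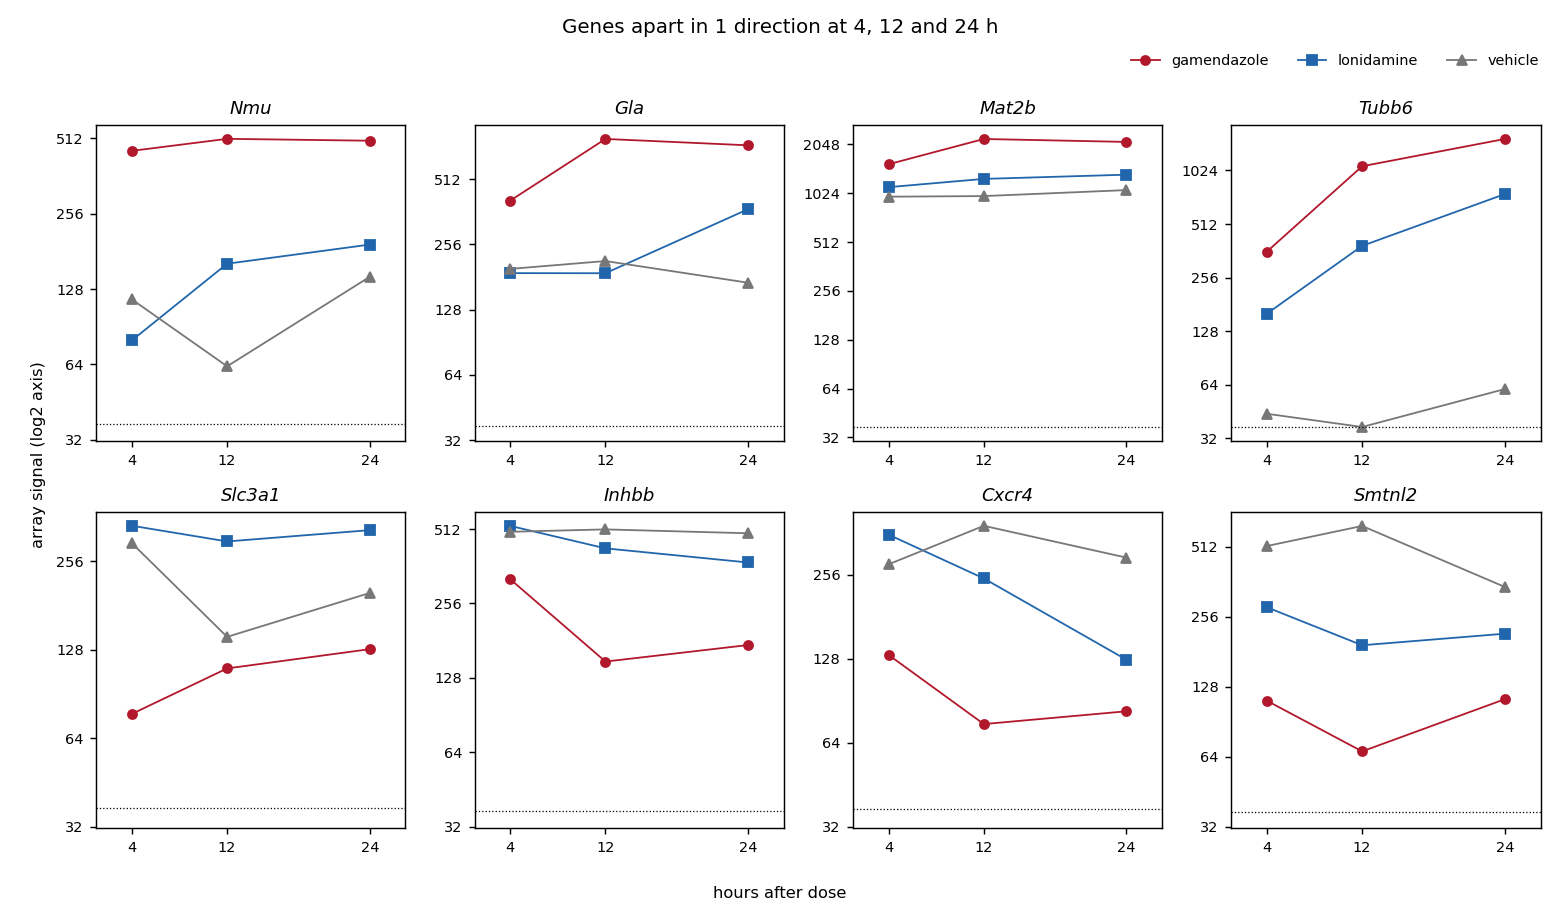
Signal on each array (y axis, log2 scale) against hours after dose (x axis) for 8 genes, with 1 array per point, gamendazole as red circles, lonidamine as blue squares and vehicle as grey triangles; the dotted line is the floor of 37.1. Gamendazole lies above lonidamine at every hour for Nmu, Gla, Mat2b and Tubb6, and below it at every hour for Slc3a1, Inhbb, Cxcr4 and Smtnl2.

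In a second fit each treated array had a level of its own and the spread came from the 4 vehicle arrays, on the assumption that the spread of treated arrays is the same. At 12 h, 38 of 17549 probe sets passed (0.217%), 9 higher (0.0513%) and 29 lower (0.165%) with gamendazole, with 1817 (10.4%) at an unadjusted p under 0.05. At 4 and 24 h limma called 0 (0% each), with 1724 (9.82%) and 1190 (6.78%) at an unadjusted p under 0.05. The 12 h count rests on every vehicle array: it was 3 without vehicle 0 h, and 1 without vehicle 4 h, vehicle 12 h or vehicle 24 h. Nipsnap3b passed in all of these, Maoa and Zcchc18 also without vehicle 0 h, and the other genes in none. The median size of the 38 differences was log2 0.32 at 4 h, 1.54 at 12 h and 0.37 at 24 h, against 0.21, 0.21 and 0.18 for all probe sets tested, and the 12 h value follows from the selection. Of the 38, 30 had 1 gene symbol, of which 29 were the brightest probe set of their gene; the other, of Fmo2, was not. Genes named in the next paragraphs were chosen because they passed at 12 h, after their values were seen.

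Nipsnap3b, of the NIPSNAP family, had signals of 602.3, 4846.0 and 5914.8 with gamendazole, against 118.3, 304.4 and 9130.7 with lonidamine and 300.8, 252.9 and 285.8 with vehicle. Gamendazole had left the vehicle level by 12 h, lonidamine had not, and at 24 h both were high with lonidamine above. The 12 h difference was 15.9-fold (log2 3.99 ± 0.21, limma adjusted p = 0.00237; 0.00782 to 0.0451 when 1 vehicle array was left out).

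Maoa, which encodes the mitochondrial monoamine oxidase A, followed the same order, at 1133.9, 3007.3 and 3214.2 with gamendazole and 639.5, 812.4 and 2280.5 with lonidamine, over vehicle signals of 602.5, 578.3 and 618.6. It was 3.70-fold higher with gamendazole at 12 h (log2 1.89 ± 0.14, limma adjusted p = 0.0106), and 1.41-fold higher at 24 h. Serpinb1a, an inhibitor of neutrophil proteases, had 300.0, 1472.3 and 1972.0 with gamendazole, against 175.0, 263.3 and 929.5 with lonidamine and 197.7, 183.8 and 225.3 with vehicle. At 12 h it was 5.59-fold higher with gamendazole (log2 2.48 ± 0.24, limma adjusted p = 0.026). With lonidamine, Maoa and Serpinb1a were above every vehicle array at 12 h, by log2 0.49 and 0.52 over the vehicle array of that hour. At 24 h they were 1.88 and 2.04 above the vehicle array of 24 h.

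Lyz2, the lysozyme of macrophages and neutrophils, was 1307.9, 3045.3 and 2758.4 with gamendazole, against 941.1, 1275.9 and 2716.3 with lonidamine and 1028.4, 1143.5 and 1053.9 with vehicle. It was 2.39-fold higher with gamendazole at 12 h (log2 1.26 ± 0.12, limma adjusted p = 0.026) and differed by 0.02 at 24 h. The other macrophage and leukocyte genes are given with that list. Hif1a, the transcription factor of low oxygen, was 1.76-fold higher at 12 h (log2 0.82 ± 0.10, limma adjusted p = 0.0459), with 3726.5 on the gamendazole array against 2114.7 on the lonidamine array. At 24 h its order was the opposite, 2885.6 with gamendazole and 3500.8 with lonidamine. Ywhag, a member of the 14-3-3 family, was 1.84-fold higher at 12 h (adjusted p = 0.0477).

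Among the genes lower at 12 h and given by their brightest probe set, Zcchc18, a zinc finger gene, had the largest difference after flooring. The gap of Nsmce4a, given below, is only a lower bound and may have been larger. Zcchc18 was 811.5, 92.0 and 118.4 with gamendazole, against 1124.8, 609.8 and 150.5 with lonidamine and 1003.2, 993.0 and 1092.7 with vehicle. The 12 h arrays were 6.63-fold apart (log2 -2.73 ± 0.18, limma adjusted p = 0.00716), and at 24 h both treatments were far below vehicle. Lrp8, a receptor for apolipoprotein E and reelin, was 534.5, 89.4 and 103.9 with gamendazole, against 745.2, 490.0 and 192.5 with lonidamine and 567.0, 716.1 and 768.0 with vehicle. It was 5.48-fold lower with gamendazole at 12 h (limma adjusted p = 0.0418). Gpr37, a G protein-coupled receptor, was 688.6, 173.1 and 143.7 with gamendazole, against 795.4, 756.8 and 247.6 with lonidamine (4.37-fold lower at 12 h, limma adjusted p = 0.0238).

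Nr0b1, which encodes the nuclear receptor DAX1 of Sertoli and Leydig cells, was 877.7, 187.0 and 151.8 with gamendazole, against 1003.1, 671.9 and 204.0 with lonidamine and 688.8, 774.2 and 618.0 with vehicle. At 12 h the gamendazole array was 3.59-fold lower than the lonidamine array (log2 -1.85 ± 0.22, limma adjusted p = 0.0439). Inhbb was 2.87-fold lower at that hour (adjusted p = 0.0477) and Cdkn1b, the cell cycle inhibitor p27, 2.44-fold lower, at 220.4 against 538.8 (adjusted p = 0.0492). Hes6, a transcriptional regulator, was 448.9 with gamendazole against 1191.9 with lonidamine at 12 h (adjusted p = 0.026), and 457.7 against 553.4 at 24 h.

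Hadh and Ech1, enzymes of fatty acid oxidation, and Crot, which moves acyl groups out of peroxisomes, were also lower at 12 h. Hadh was 394.3 with gamendazole against 1148.5 with lonidamine at 12 h (2.91-fold, limma adjusted p = 0.026), and 586.3 against 558.3 at 24 h. For Ech1 the 12 h signals were 572.3 and 1186.0 (2.07-fold, limma adjusted p = 0.0477), and for Crot 506.0 and 1739.1 (3.44-fold, limma adjusted p = 0.0477), each with gamendazole given first. Vehicle signals of Hadh, Ech1 and Crot at 12 h were 1297.2, 1196.8 and 1962.0, so the lonidamine arrays stood near them. Nsmce4a, a subunit of the SMC5/6 complex, was at the floor on gamendazole 12 h and 229.8 on lonidamine 12 h, so it was at least 6.19-fold lower (limma adjusted p = 0.0477). The remaining genes that passed were Cfap20dc, higher, and Bex4, Dpysl2, Fmo2, Fyn, Gcnt3, Nrep, Nudt11, Psat1, Pwwp3b, Rapgef5, Reep1 and Unc119, lower. Dpysl2, which binds tubulin, and Reep1, of the endoplasmic reticulum, were also lower with gamendazole at 24 h, by -0.35 and -0.92 on the log2 scale. The probe set of Fmo2, a monooxygenase gene, was 39.7 with gamendazole and 299.4 with lonidamine at 12 h, 7.54-fold lower (limma adjusted p = 0.0439).

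Set against the vehicle array of the same hour, 1, 31 and 28 of the 38 probe sets were at least 2-fold away with gamendazole at 4, 12 and 24 h, in the direction of gamendazole 12 h. Of all probe sets, 2.94%, 5.29% and 5.59% were 2-fold from vehicle in either direction with gamendazole at those hours. With lonidamine the counts were 0, 0 and 25 of 38, with 2.11%, 3.23% and 4.67% of all probe sets. At 12 h the 31 and the 0 both follow in part from choosing probe sets that differed at that hour. The direction counted was itself set by the gamendazole 12 h array. The shares of all probe sets required the brighter array at or above the pooled median, and the counts of the 38 did not. The vehicle array of 24 h, against which the 24 h counts were taken, was among those that gave the spread for the choice. At 24 h, 28 of the 38 had the sign of the 12 h difference, where 55% of all probe sets tested had the same sign at both hours.

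**Figure D3:**
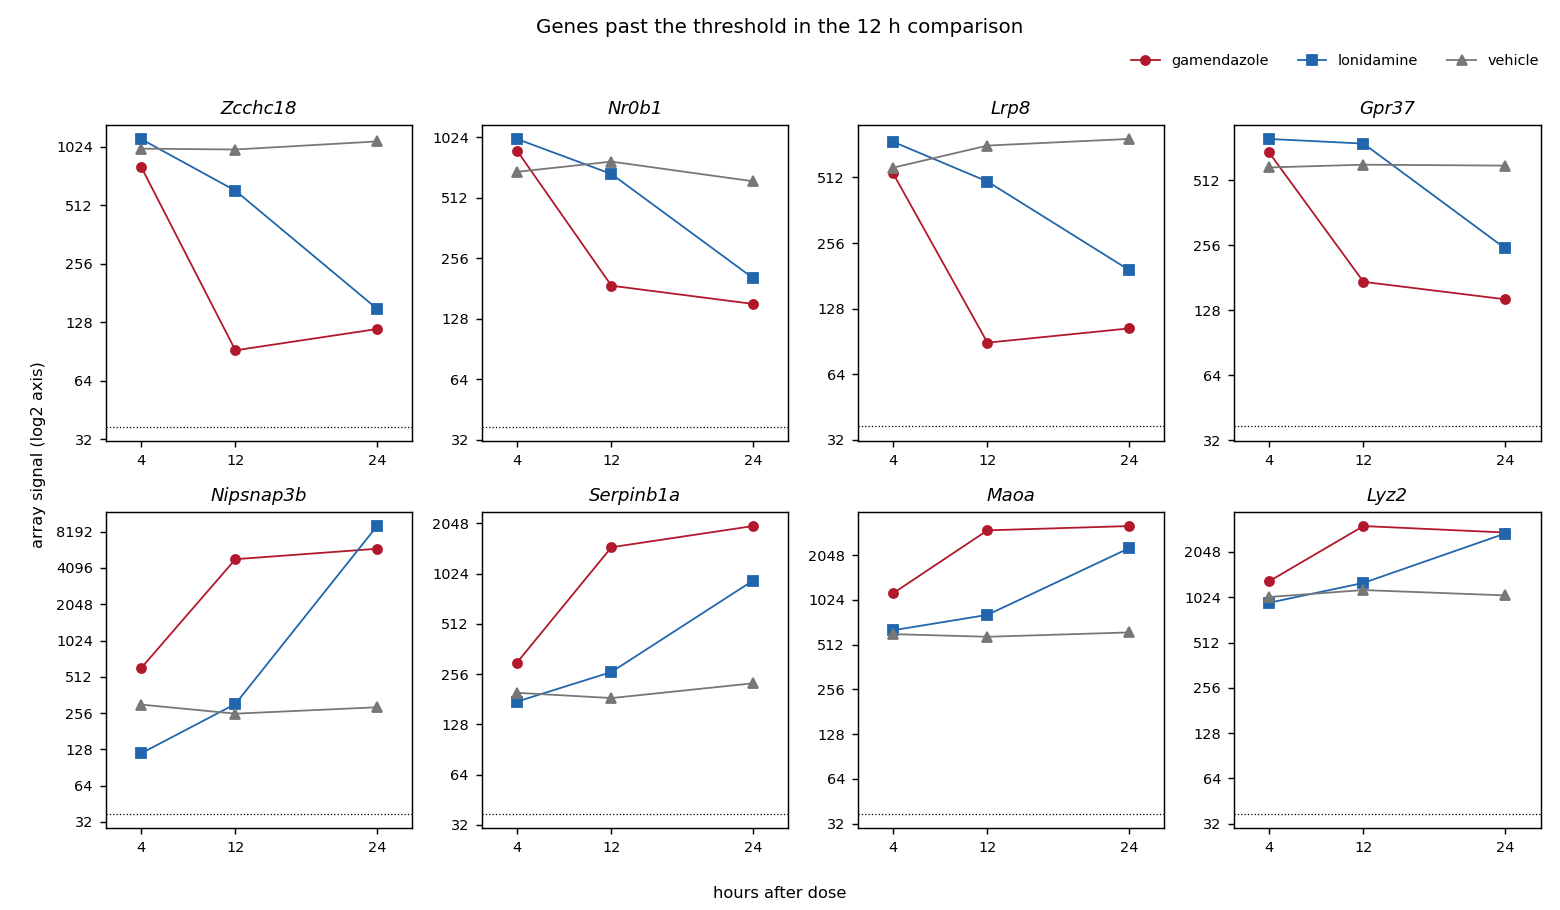
Signal on each array (y axis, log2 scale) against hours after dose (x axis) for 8 genes that passed the 12 h comparison, 1 array per point, gamendazole red, lonidamine blue and vehicle grey; the dotted line is the floor. At 12 h lonidamine lies closer to vehicle than gamendazole does in every panel, and at 24 h the lonidamine points stand on the gamendazole side of vehicle.

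The arrays were also compared across hours, a comparison chosen after the data were seen. Gamendazole 12 h differed from lonidamine 24 h with a standard deviation of 0.429 on the log2 scale over the 17549 probe sets, less than from lonidamine 12 h (0.486). Gamendazole 4 h differed from lonidamine 12 h by 0.430 and from lonidamine 4 h by 0.455. The other unmatched pairs lay between 0.524 and 0.584, and at 24 h the matched pair was the closest, at 0.417. Gamendazole 4 h and lonidamine 12 h shared a run, whereas gamendazole 12 h and lonidamine 24 h did not, and the part of the run in these values was not tested.

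The inflammatory list was mostly higher with gamendazole at 4 h and mostly lower at 24 h. Of 27 tested genes of the interleukin 1, NF-kB and chemokine list, 20 were higher with gamendazole at 4 h, 15 at 12 h and 3 at 24 h, and the median log2 difference was 0.55, 0.21 and -0.56. The medians of all 10508 tested genes were 0.00, -0.01 and 0.00. None of the 27 passed the averaged test in either direction. No probe set of the 17549 tested did, so a count of 0 is the same for every list here. The list and its genes were chosen with earlier results of these data known, and the counts describe 3 pairs of arrays, of which the 4 h pair was split between runs. Under quantile normalization and cyclic loess no median of the list turned its sign, but the 12 h median was 0.17 and 0.05. With the floor at the 50th percentile the medians were 0.31, 0.21 and -0.54.

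Il1a encodes interleukin 1 alpha, the form made by Sertoli cells. It was 1741.1, 976.3 and 444.4 with gamendazole, against 943.0, 1441.1 and 661.3 with lonidamine and 139.5, 103.8 and 101.0 with vehicle. The peak was at 4 h with gamendazole and at 12 h with lonidamine, and both stayed above vehicle throughout. Gamendazole was 1.85-fold above lonidamine at 4 h, and lonidamine 1.48-fold and 1.49-fold above gamendazole at 12 and 24 h, so the averaged difference was -0.08 ± 0.30 (limma adjusted p = 0.993). A second probe set of Il1a gave log2 differences of 1.05, -0.51 and -0.49 at the same hours. The sign of the averaged value turned when 1 array or hour was left out, as given in the closing section.

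Cxcl1, a chemokine for neutrophils, was 1708.7, 1016.3 and 229.2 with gamendazole, against 787.2, 1993.5 and 494.5 with lonidamine, over vehicle signals at the floor. Its order changed in the same way, with gamendazole 2.17-fold above at 4 h and lonidamine 1.96-fold and 2.16-fold above at 12 and 24 h. Ccl2, a chemokine for monocytes, was 381.2, 2656.4 and 1438.3 with gamendazole, against 202.8, 1435.3 and 2119.9 with lonidamine. With gamendazole Ccl2 was higher at 4 and 12 h and lower at 24 h. The interferon-induced chemokine Cxcl10 was 594.0, 803.8 and 185.3 with gamendazole, against 266.2, 1152.7 and 686.3 with lonidamine, 3.70-fold lower with gamendazole at 24 h. Ccl7, another monocyte chemokine, was 143.7, 805.5 and 158.9 with gamendazole, against 39.8, 594.9 and 680.7 with lonidamine, which is 4.28-fold lower with gamendazole at 24 h.

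The change of the difference between 24 h and 4 h was tested as such. None of 17549 probe sets passed (limma, 0%; 1760, or 10%, at an unadjusted p under 0.05). The values for Cxcl1, Cxcl10, Ccl7 and Ccl2 were log2 -2.23 ± 0.35 (limma adjusted p = 0.18), -3.05 ± 0.70 (adjusted p = 0.287), -3.95 ± 0.52 (adjusted p = 0.163) and -1.47 ± 0.45 (adjusted p = 0.372). All 4 were thus lower at 24 h relative to 4 h without reaching the threshold.

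Immediate early genes, switched on by a stimulus without new protein synthesis, had the same order of medians. Of 37 tested, 31 were higher with gamendazole at 4 h, 25 at 12 h and 11 at 24 h, with medians of 0.41, 0.22 and -0.28 (0.29, 0.10 and -0.11 with the floor at the 50th percentile), and 0 passed the averaged test in either direction. Fos, a subunit of the factor AP-1, was 845.5, 363.3 and 173.9 with gamendazole, against 348.4, 666.7 and 257.2 with lonidamine, and below the floor, below the floor and 63.1 with vehicle. The transcription factor Egr1 was 1715.2, 969.5 and 449.6 with gamendazole, against 981.7, 1804.4 and 431.2 with lonidamine. As with Il1a, the highest signal of both genes fell at 4 h with gamendazole and at 12 h with lonidamine. Gadd45b, a stress sensor, was 5.48-fold higher with gamendazole at 4 h, at 343.2 against 62.6, and 1.48-fold lower at 24 h. Nr4a3, an orphan nuclear receptor, was 336.6, 157.4 and 65.9 with gamendazole, against 69.1, 57.0 and 198.2 with lonidamine.

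Interferon response genes had the largest negative median of all lists at 24 h. Of 17 tested, 13 were higher with gamendazole at 4 h, 13 at 12 h and 3 at 24 h, and 6 were at least 2-fold lower at 24 h. Among all 10508 tested genes, 142 were at least 2-fold lower at 24 h. The medians were 0.35, 0.48 and -0.87, and 0 passed the averaged test in either direction. With the floor at the 50th percentile the 4 h median was 0.06 (9 higher, 2 lower) and the 24 h median -0.83. Relative to the vehicle array of the hour, the list's median with gamendazole was 0.12, 1.21 and 1.17 and with lonidamine -0.09, 0.42 and 2.10; these comparisons share vehicle arrays. Irf1, a transcription factor of this response, was 459.5, 505.5 and 517.0 with gamendazole, against 297.1, 1040.9 and 1159.9 with lonidamine and 173.1, 148.7 and 205.2 with vehicle. Rsad2, which encodes the antiviral protein viperin, was 98.8, 193.3 and 152.5 with gamendazole, against at the floor, 72.6 and 312.4 with lonidamine. Irf9, a transcription factor of the interferon response, was, like Irf8, lower at every hour, and Irf9 had signals of 235.4, 272.8 and 198.5 with gamendazole against 299.0, 477.7 and 307.5 with lonidamine (averaged -0.59 ± 0.18, limma adjusted p = 0.985). Outside the lists, Ubd, a ubiquitin-like protein induced by interferon gamma, was 465.7 with gamendazole and 2343.6 with lonidamine at 24 h, 5.03-fold lower.

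**Figure D4:**
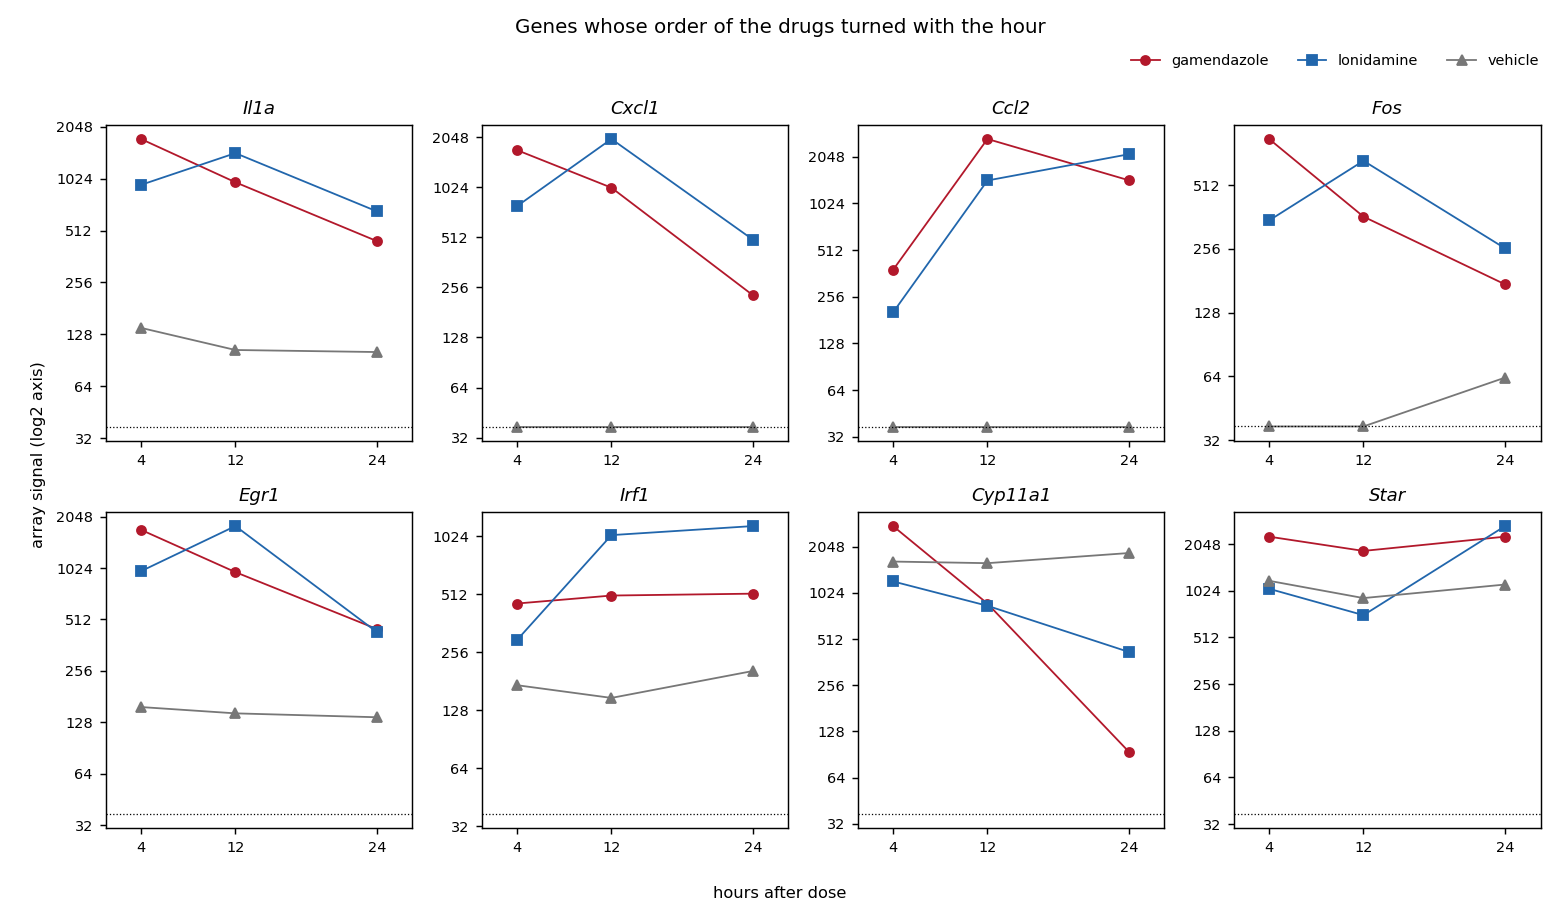
Signal on each array (y axis, log2 scale) against hours after dose (x axis) for 8 genes of inflammation, early response and steroid synthesis, 1 array per point, gamendazole red, lonidamine blue and vehicle grey; values under the floor (dotted line) are drawn at it. For Il1a, Cxcl1, Fos and Egr1 the gamendazole point is highest at 4 h and the lonidamine point at 12 h.

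Genes of the interleukin 6, STAT3 and acute phase list had medians of 0.11, 0.37 and -0.20, with 11, 13 and 5 of 18 higher with gamendazole. Hpx, the haem carrier hemopexin, was 810.4, 3350.5 and 5796.2 with gamendazole, against 413.4, 1280.9 and 6151.1 with lonidamine. It was 1.96-fold and 2.62-fold higher with gamendazole at 4 and 12 h and almost level at 24 h. Lcn2, the iron-binding lipocalin of the acute phase, was 1679.3 with gamendazole and 4428.7 with lonidamine at 24 h. Targets of YAP and of serum response factor had medians of 0.33, 0.47 and 0.08 over 19 genes. Among them Tnfrsf12a, the receptor of TWEAK, was 807.1, 2292.4 and 1621.7 with gamendazole, against 178.8, 786.3 and 1572.2 with lonidamine, so that a 4.51-fold gap at 4 h was 1.03-fold at 24 h. Anxa1, which encodes annexin A1, was 245.5, 604.9 and 973.4 with gamendazole, against 207.5, 293.2 and 437.4 with lonidamine (averaged 0.81 ± 0.32, limma adjusted p = 0.985). No gene of these lists passed the averaged test.

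Leydig cells make testosterone, and most of their genes were higher with gamendazole at 4 h. Of 16 tested genes of steroid synthesis and Leydig cells, 11 were higher with gamendazole at 4 h, 7 at 12 h and 5 at 24 h, with medians of 0.56, -0.03 and -0.24 (0.34, -0.01 and -0.12 with the floor at the 50th percentile). None passed the averaged test. Cyp11a1, the enzyme that starts steroid synthesis from cholesterol, was 2788.0, 871.4 and 94.1 with gamendazole, against 1215.5, 843.2 and 421.5 with lonidamine and 1637.0, 1598.0 and 1860.7 with vehicle. With gamendazole it was the highest array at 4 h and the lowest at 24 h, a change of the difference of -3.36 ± 0.33 on the log2 scale (limma adjusted p = 0.0834). At 24 h it was 4.48-fold lower with gamendazole. Lhcgr, the receptor of luteinising hormone, and Cyp17a1, the next enzyme of the pathway, were chosen after their values were seen: their log2 differences were 1.09, -0.61 and -1.36 and 0.79, -0.14 and -0.90.

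Star, which carries cholesterol into mitochondria, did not follow Cyp11a1. It was 2289.6, 1852.0 and 2289.4 with gamendazole, against 1055.1, 713.0 and 2679.9 with lonidamine and 1188.1, 918.9 and 1124.0 with vehicle. With gamendazole Star was above vehicle at each hour, and with lonidamine only at 24 h. The averaged difference was 0.76 ± 0.27 (limma adjusted p = 0.985), and without lonidamine 24 h it was 1.26 and passed (limma adjusted p = 0.0181). The electron carrier Fdx1 was 9164.4, 6185.3 and 3973.9 with gamendazole, against 4331.7, 4034.2 and 5297.9 with lonidamine. The summed signal of the Leydig list was 33242, 21954 and 19282 with gamendazole, against 20773, 18636 and 21441 with lonidamine and 19565 to 24439 with vehicle, and the 4 h pair was in different runs.

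Cholesterol synthesis and uptake genes, 22 tested, had medians of 0.29, 0.16 and -0.19, with 16, 13 and 6 higher with gamendazole. Abca1, which exports cholesterol, was 633.8, 857.8 and 825.5 with gamendazole, against 167.0, 184.9 and 1484.1 with lonidamine and 353.1, 379.2 and 636.6 with vehicle. At 4 and 12 h vehicle stood between the treatments, and at 24 h lonidamine was the highest; other probe sets of Abca1 did not all run the same way. Msmo1, an enzyme of cholesterol synthesis, was 922.6, 920.3 and 992.5 with gamendazole, against 454.8, 559.6 and 1267.9 with lonidamine.

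Sertoli cell markers lay slightly lower with gamendazole at the later hours. Of 19 tested, 13 were higher at 4 h, 3 at 12 h and 3 at 24 h, with medians of 0.17, -0.27 and -0.16, and 0 passed the averaged test in either direction. At 12 h Nr0b1 and Inhbb, given above, were the lowest 2 and Testin the highest. Testin, which Sertoli cells secrete at their junctions, was 242.3, 1263.4 and 1908.8 with gamendazole, against 136.4, 261.9 and 1113.1 with lonidamine and 74.7, 71.9 and at the floor with vehicle. It was 4.82-fold higher with gamendazole at 12 h, and the averaged difference was 1.29 ± 0.67 (limma adjusted p = 0.985). Ctsl, a lysosomal protease secreted by Sertoli cells, was 6019.8, 9742.9 and 11745.0 with gamendazole, against 4453.5, 6069.8 and 9246.2 with lonidamine (0.49 ± 0.14, limma adjusted p = 0.985). The summed signal of the markers was 62164, 59830 and 60000 with gamendazole, against 56836, 63111 and 61677 with lonidamine and 53891 to 55786 with vehicle.

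Genes of the blood-testis barrier and of the adhesion between Sertoli and germ cells, the structures that both compounds are known to act on, differed little as a list. Of 41 tested, 25 were higher with gamendazole at 4 h, 18 at 12 h and 17 at 24 h, with medians of 0.11, -0.03 and -0.05, and 0 passed the averaged test in either direction. Ocln, the tight junction protein occludin, was 267.9, 102.8 and 170.6 with gamendazole, against 322.8, 292.6 and 202.0 with lonidamine (-0.67 ± 0.26, limma adjusted p = 0.985). It was 2.85-fold lower at 12 h and 1.18-fold lower at 24 h. Timp1, an inhibitor of matrix proteases, was 1078.1, 8535.9 and 8833.6 with gamendazole, against 856.1, 2589.5 and 9207.5 with lonidamine, 3.30-fold higher at 12 h. The 29 genes of the actin and microtubule cytoskeleton had medians of 0.08, 0.21 and 0.13, with 18, 23 and 17 higher. Of that list, Camsap3, which binds microtubule minus ends, was 173.0, 56.0 and 73.0 with gamendazole, against 262.8, 177.7 and 120.7 with lonidamine. Glycolysis and lactate transport genes, 29 tested, had medians of 0.14, -0.10 and -0.04, and among them Slc16a1, which carries lactate, was 1323.5, 877.1 and 815.7 with gamendazole, against 1384.3, 1276.4 and 1246.4 with lonidamine (-0.41 ± 0.14, limma adjusted p = 0.985).

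The labels connect gamendazole with the chaperone HSP90 and the translation factor eEF1A, and transcripts of neither separated the treatments. Hsp90ab1 was 5242.1, 5890.3 and 4921.8 with gamendazole, against 4711.6, 5254.7 and 5316.5 with lonidamine, a difference of 0.07 ± 0.07 with a 95% interval of -0.10 to 0.24 (limma adjusted p = 0.985). Eef1a1 was 20430, 20405 and 19911 with gamendazole, against 19940, 19524 and 18995 with lonidamine, a difference of 0.06 ± 0.04 with an interval of -0.04 to 0.15 (limma adjusted p = 0.985). The 27 heat shock genes had medians of 0.03, 0.02 and -0.06 and the 13 elongation genes 0.07, 0.05 and -0.09. Of both lists 0 passed the averaged test, as of all 17549 probe sets, so that count does not set them apart. Transcript levels do not measure the binding of a compound to these proteins.

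**Figure D5:**
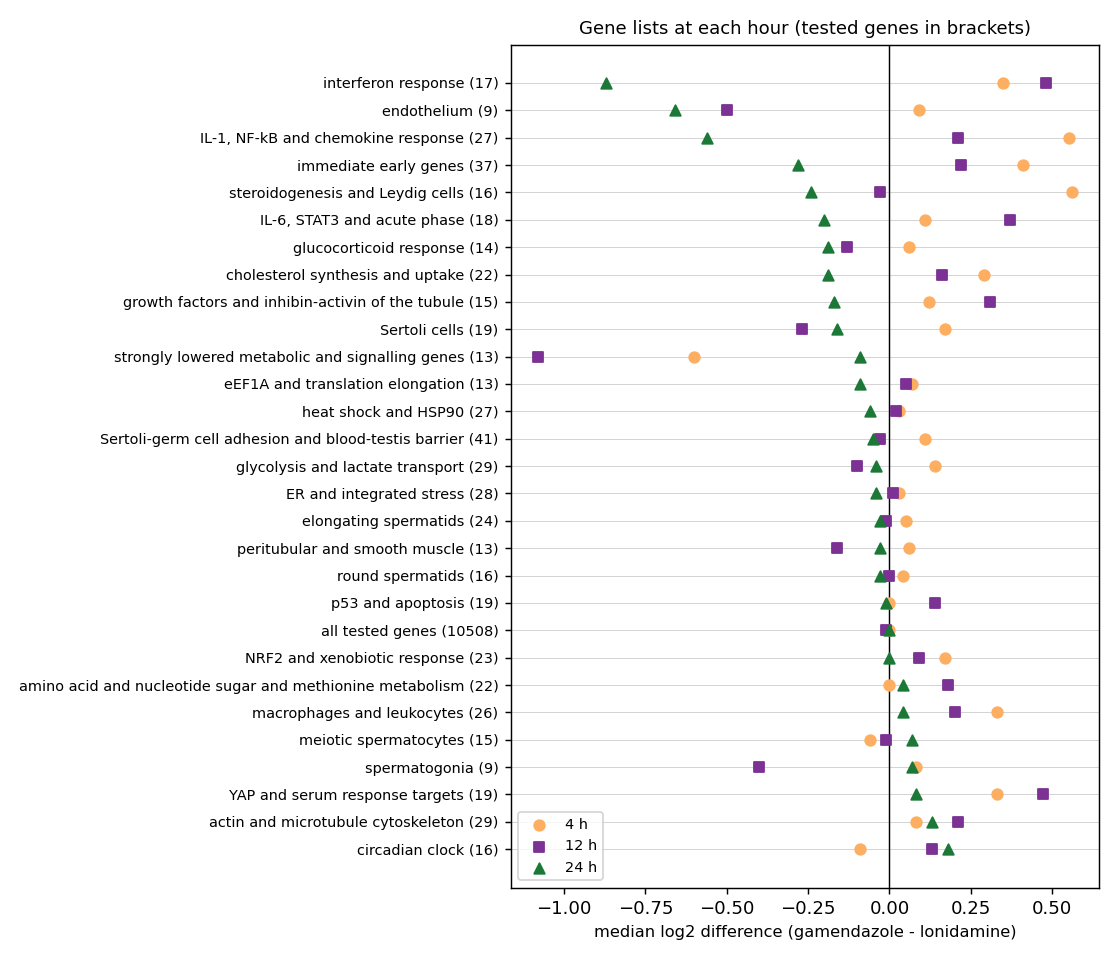
Median log2 difference, gamendazole minus lonidamine (x axis), of each gene list with 5 or more tested genes (y axis, number tested in brackets) at 4 h (orange circles), 12 h (purple squares) and 24 h (green triangles), with all tested genes as a row. The interferon, interleukin 1 and immediate early lists are right of 0 at 4 h and left of it at 24 h, and the 3 spermatid and spermatocyte lists stay close to 0.

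Germ cell lists lay close to the median of all genes. At 4, 12 and 24 h the medians were -0.06, -0.01 and 0.07 for 15 meiotic spermatocyte genes, 0.04, 0.00 and -0.03 for 16 round spermatid genes and 0.05, -0.01 and -0.03 for 24 elongating spermatid genes, and 0 passed. Prm2, a protamine that packs sperm DNA, was 19159, 16180 and 16048 with gamendazole, against 18593, 19380 and 18123 with lonidamine. The 9 spermatogonial genes had medians of 0.08, -0.40 and 0.07, with 8 of 9 lower at 12 h, where the median was -0.26 with the floor at the 50th percentile. Among them Kit, the receptor of stem cell factor, was 46.8 with gamendazole and 138.9 with lonidamine at 12 h, and 90.4 and 59.0 at 24 h.

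Endothelial genes were lower with gamendazole at 24 h. Of 9 tested, 3 were lower at 4 h, 6 at 12 h and 9 at 24 h, with medians of 0.09, -0.50 and -0.66, and 0 passed the averaged test in either direction. With the floor at the 50th percentile the 12 h median was -0.01 (3 higher, 5 lower) and the 24 h median was -0.66. Cldn5, the claudin of blood vessels that is also on the barrier list, was 352.3, 82.8 and 97.6 with gamendazole, against 253.6, 343.3 and 193.7 with lonidamine and 281.7, 370.5 and 310.9 with vehicle. Tek, the receptor of angiopoietins, was 256.5, 105.0 and 101.6 with gamendazole, against 200.6, 214.8 and 255.2 with lonidamine. Vwf, the von Willebrand factor of endothelial cells, was 74.4, 106.5 and 216.6 with gamendazole, against 162.7, 167.0 and 358.6 with lonidamine (-0.84 ± 0.31, limma adjusted p = 0.985). The summed signal of the list was 2006, 1610 and 1859 with gamendazole, against 1631, 2208 and 2564 with lonidamine and 1605, 1965 and 2078 with vehicle.

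Blood cell markers were higher with gamendazole in part. Of 26 macrophage and leukocyte genes, 22 were higher at 4 h, 20 at 12 h and 16 at 24 h (medians 0.33, 0.20 and 0.04), and 0 passed the averaged test in either direction. With the floor at the 50th percentile the 4 h median was 0.06 (16 higher, 4 lower). That list's summed signal was 17052, 20706 and 22671 with gamendazole, against 15301, 18004 and 21960 with lonidamine and 16108 to 17471 with vehicle. S100a9, known from neutrophils, was 77.6, 370.9 and 179.1 with gamendazole, against at the floor, 143.4 and 123.0 with lonidamine. Hbb, the beta-globin of red cells, was 3730.1, 5548.7 and 8047.4 with gamendazole, against 3894.0, 3076.2 and 4236.0 with lonidamine and 3193.9, 1986.3 and 3024.3 with vehicle. Hbb was level at 4 h and 1.80-fold and 1.90-fold higher with gamendazole at 12 and 24 h (averaged 0.57 ± 0.20, limma adjusted p = 0.985). Without the 4 h arrays the difference was 0.89 and passed (limma adjusted p = 0.0226), and without gamendazole 4 h alone it was 0.93 and passed (adjusted p = 0.0248). The other 3 erythrocyte genes tested, Alas2, Ank1 and Slc4a1, differed by -0.65, -0.05 and -0.11 at 24 h, so they did not run with Hbb. The summed signal of the erythrocyte list was 5711, 7407 and 9633 with gamendazole, against 5979, 5005 and 6157 with lonidamine. Whether blood in the tissue moved the leukocyte and endothelial values was not tested.

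Stress and metabolic lists showed small differences with single genes apart. Ddit4, an inhibitor of the kinase complex mTORC1, was 240.1, 275.4 and 335.5 with gamendazole, against 327.9, 319.2 and 866.9 with lonidamine and 336.2, 353.4 and 669.9 with vehicle. At 24 h it was 2.58-fold lower with gamendazole, and lonidamine was above vehicle (averaged -0.68 ± 0.21, limma adjusted p = 0.985). Bbc3, the p53 target PUMA that promotes cell death, was 71.0, 99.5 and 141.6 with gamendazole, against 168.1, 189.8 and 162.0 with lonidamine (-0.79 ± 0.28, limma adjusted p = 0.985). Cdkn1b was 500.7, 220.4 and 336.7 with gamendazole, against 813.7, 538.8 and 370.5 with lonidamine (-0.71 ± 0.26, limma adjusted p = 0.985), and both treatments were below vehicle signals of 831.1, 875.9 and 942.4. Hmox1, which degrades haem, was 2117.5 with gamendazole and 958.5 with lonidamine at 4 h, and differed by 0.09 and -0.08 at 12 and 24 h. The list medians lay between 0.00 and 0.17 for 23 genes of the NRF2 response, -0.04 and 0.03 for 28 genes of endoplasmic reticulum stress, and -0.01 and 0.14 for 19 genes of p53 and apoptosis. At 4, 12 and 24 h, medians were 0.12, 0.31 and -0.17 for 15 growth factor and inhibin genes, 0.00, 0.18 and 0.04 for 22 genes of amino acid, nucleotide sugar and methionine metabolism, and 0.06, -0.13 and -0.19 for 14 glucocorticoid response genes. They were -0.09, 0.13 and 0.18 for 16 clock genes, 0.06, -0.16 and -0.03 for 13 peritubular genes and 0.20, -0.22 and 0.13 for 3 epididymal genes, and no gene of these lists passed the averaged test.

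A last list held 13 metabolic and signalling genes that had been picked because they were low with gamendazole on these arrays, so its direction is not independent evidence. Its medians between the treatments were -0.60, -1.08 and -0.09, and with the floor at the 50th percentile -0.60, -0.61 and -0.07. Nat8f5, an N-acetyltransferase gene, reached the floor with both treatments at 12 and 24 h, over vehicle signals of 276.8 and 379.5. Hao2, an oxidase of hydroxy acids in peroxisomes, was 5634.1, 769.2 and 317.3 with gamendazole, against 4068.3, 1631.6 and 253.2 with lonidamine and 5018.2, 3108.4 and 4749.0 with vehicle. By 24 h Hao2 was far below the vehicle level with both treatments, and the signals of the treatments were close.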

How the data were processed

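Total RNA of rat testis was hybridised to Affymetrix Rat230_2 arrays after biotin labelling in a single cycle, per the labels' protocols. The submitters' processing notes name GCOS 1.1. Deposited values are linear signal intensity per probe set, scaled by the authors' software to 1 trimmed mean of 500 on every array, as the values show. Here, 57 control probe sets were left out, values were floored at the pooled 25th percentile and log2 was taken. Probe sets that reached the pooled median on at least 2 arrays, 17549, were tested with limma 3.58.1 in R 4.3.3 (eBayes with a variance trend, Benjamini-Hochberg over all of them, threshold 0.05). The averaged fit took the 9 arrays after 0 h, with factors for treatment and for hour (4 residual degrees of freedom). The single-hour fit used all 10 arrays (3 residual degrees of freedom, from vehicle arrays), and in it 28 of the probe sets had no spread of their own, being floored on each vehicle array. P-values rest on hours or vehicle arrays in place of replicates. The number of arrays limits the precision. On simulated data with known changes, false calls were more than the threshold of 0.05 allows in both fits.

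Genes were named through the platform annotation: 20826 probe sets had 1 symbol, 436 several and 9780 none, and the brightest probe set stands for its gene. Of 36 named genes with over 1 tested probe set, 30 had all of 1 sign; Abca1, Crem, Hsp90ab1, Il1a, Pdk4 and Zpbp2 did not. The gene comparison, the 30 lists and the rules were chosen with earlier results of these data known. Genes were named by rank of the averaged difference (those passing, or the next 3 by p in each direction), by the 6 largest differences in each direction at each hour or of the change, by up to 4 per list, and from a fixed list. Not every gene that these rules gave is described. Cpne7 (averaged log2 difference -1.74) and S100a4 (1.74) are among those left out. Genes passing at 12 h and any others so marked were chosen afterwards. No sequence is given, since none was used here.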

Additional observations from a re-analysis of the deposited data

How the results depend on the processing

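The averaged count of 0 probe sets past the threshold stayed at 0 with other floors, filters and normalizations, without the variance trend, with run as the factor instead of hour, with the actin ratio and with only the 6 drug arrays. Without the hour as the pairing of arrays (no replicate block) it was also 0. Leaving out an hour or a drug array gave 0 to 8 in both directions, 0 to 5 higher and 0 to 3 lower. With only the 4 drug arrays of 12 and 24 h, an alternative chosen after seeing the data that leaves 1 residual degree of freedom, 46 passed, 31 higher and 15 lower. The 12 h count of 38 was 597 with the floor at the 50th percentile and 1069 with no filter. In those settings 384 and 809 of the calls had no vehicle spread of their own, and 30 and 34 were among the 38. Without the variance trend the 12 h count was 13, of which 4 were among the 38 and 8 had no vehicle spread. Without 1 vehicle array it was 1 to 3. With that floor the 4 h, 24 h and change counts were 241, 487 and 510, and with no filter 834, 926 and 1433. Probe sets apart at 4, 12 and 24 h were 2357, 2728 and 2165 at 1.5-fold, 235, 305 and 189 at 3-fold, and 262, 359 and 210 with the higher floor, where vehicle pairs had 1697 to 1912, 161 to 251 and 69 to 106. The averaged difference of Il1a, -0.08, was -0.57 when the arrays of 4 h were left out, 0.16 when those of 12 h or of 24 h were, and 0.21 without lonidamine 12 h and 0.26 without gamendazole 24 h. Of the hourly differences of named genes of at least 0.3 on the log2 scale, 0 of 387 turned under quantile normalization or cyclic loess. All precision is limited by 1 array per treatment and hour.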
